A study of Mus musculus with 7 samples.

Results

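The genes described here are 10 regulators of alternative splicing that are known from epithelial, mesenchymal, muscle and neural cells: Esrp1, Esrp2, Rbm47, Mbnl1, Mbnl2, Mbnl3, Rbfox2, Ptbp1, Ptbp2 and Celf1. They were chosen by symbol, and each of the 10 symbols was found among the 55484 gene rows of the RNA-seq count table. Of these, 9 had enough counts to be tested, among 16580 genes tested in all, and Esrp2 was held back by the filter on low counts and is given by its values.

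Alternative splicing joins different sets of exons of the same primary transcript into different mRNAs, and RNA-binding proteins that sit on or beside an exon decide whether it is kept. Esrp1 and Esrp2, the epithelial splicing regulatory proteins, favour the epithelial forms of genes such as Fgfr2 and Cd44 and are known for their loss when epithelial cells turn mesenchymal. Mbnl proteins, which are zinc-finger RNA-binding proteins, and Rbfox2 are known for splice forms of differentiated and mesenchymal cells, Ptbp1 for holding neural exons out of mRNAs in non-neural cells, and Celf1 for acting against Mbnl proteins on shared exons in heart and muscle.

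The study compared mouse embryonic fibroblasts (MEFs), which are mesenchymal cells grown from the embryo, with mouse embryonic stem cells (mESCs), which are pluripotent cells of the early embryo that grow as epithelial-like colonies. Transcripts were measured in 4 MEF and 3 mESC libraries. Expression data were used in the study as a companion to open-chromatin data of the same cell types, with 3 biological replicates given. The study does not say why this number differs from the 4 MEF libraries counted. Both cell types carried the same C57/Bl6 background, as stated with the methods of the open-chromatin assay. No agent or allele was given for either, and ages and time points were not given. Selection for the surface markers Thy1 in MEFs, and for Ssea1 and Epcam without Thy1 in mESCs, was described for the cells of the open-chromatin assay. The study describes its expression samples as biological replicates, while neither it nor the labels name the culture or animal behind each library, so the p-values measure the spread between these libraries. Libraries of the same cell type differed in Y-linked transcripts, whose values stand beside Mbnl3.

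Libraries are named by their total counts, which were 11441278, 9176467, 7312679 and 6528643 in MEFs and 8193825, 8057985 and 7462710 in mESCs, and all values of single libraries follow in this order. Levels are counts scaled to a common library total (CPM), where a floor of 3 counts stood for 0.262 to 0.460 CPM, and floors cover counting error only. Differences are log2 fold changes of mESCs over MEFs from edgeR's quasi-likelihood test with TMM scaling, a gene being called at a Benjamini-Hochberg adjusted p under 0.05. Levels in CPM carry no TMM scaling, so ratios of mean CPM need not equal the fold changes. The median log2 fold change of all tested genes was 0.04 with TMM and 0.32 without it. The cell types matched their labels, since all 11 pluripotency markers were called higher in mESCs (log2 fold changes of 7.96 for Dppa4 and 7.74 for Sox2) and all 12 fibroblast markers were called lower, among them Col1a2 with -7.79 and Fap at 16.4 to 28.1 CPM in MEFs and 0 to 0.122 CPM in mESCs. The protocol text in the labels names blood stem cells as the source of RNA, whereas Ptprc, the general marker of white blood cells, reached at most 1.85 CPM in any library. Other genes on the blood list were higher, with Csf1r at 5.74 to 20.6 CPM in all 7 libraries and, in mESCs, Kit at 33.5 to 37.0 CPM and Laptm5 at 59.2 to 68.6 CPM. The libraries of 6528643 and 7462710 counts stood apart from the others of their cell type in the hnRNP genes Hnrnpa1 and Hnrnpl, with Hnrnpa1 at 1269 CPM against 2506 to 2685 in the other MEF libraries and at 678 CPM against 1879 and 3544 in the other mESC libraries. Results are therefore also given without both of these smallest libraries, an alternative chosen after seeing the data.

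Because the 3 Mbnl genes fell together and Rbm47 rose most among the tested members, the promoters of these genes are shown, each as 300 bases of the coding strand from 250 bases before to 50 after an annotated start (RefSeq, GRCm38.p6). Capitals mark the GC box of Sp and Klf factors (GGGCGG, or CCGCCC on the other strand), and the E-box of the Snai and Zeb repressors (CACCTG, or CAGGTG) was searched as well, with overlapping matches counted on both strands.
Mbnl1, chr3:60500929-60501228, + strand: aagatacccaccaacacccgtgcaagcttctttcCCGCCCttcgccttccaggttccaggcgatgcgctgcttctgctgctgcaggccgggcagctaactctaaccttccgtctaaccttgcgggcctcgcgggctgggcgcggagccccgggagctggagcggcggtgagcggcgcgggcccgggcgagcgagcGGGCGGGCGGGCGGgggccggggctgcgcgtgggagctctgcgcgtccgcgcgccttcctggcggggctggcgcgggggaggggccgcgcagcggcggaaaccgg
Mbnl2, chr14:120275419-120275718, + strand: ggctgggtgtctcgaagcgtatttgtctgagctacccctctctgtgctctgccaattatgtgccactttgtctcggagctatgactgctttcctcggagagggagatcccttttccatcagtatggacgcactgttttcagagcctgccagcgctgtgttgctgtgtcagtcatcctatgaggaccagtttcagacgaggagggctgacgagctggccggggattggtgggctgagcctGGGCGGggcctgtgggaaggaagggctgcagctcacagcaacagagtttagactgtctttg
Mbnl3, chrX:51205941-51206240, - strand: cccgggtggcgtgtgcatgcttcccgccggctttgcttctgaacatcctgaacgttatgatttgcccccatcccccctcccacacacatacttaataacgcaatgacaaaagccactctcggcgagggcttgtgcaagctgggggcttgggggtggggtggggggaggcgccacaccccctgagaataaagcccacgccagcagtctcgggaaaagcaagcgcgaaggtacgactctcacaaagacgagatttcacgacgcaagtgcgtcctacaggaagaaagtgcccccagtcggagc
Rbm47, chr5:66151905-66152204, - strand: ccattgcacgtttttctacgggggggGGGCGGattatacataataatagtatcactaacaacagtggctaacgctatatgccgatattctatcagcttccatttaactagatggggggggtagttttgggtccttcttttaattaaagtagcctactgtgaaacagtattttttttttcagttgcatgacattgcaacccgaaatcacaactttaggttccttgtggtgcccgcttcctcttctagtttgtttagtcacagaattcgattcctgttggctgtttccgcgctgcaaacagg
The Mbnl1 window had a GC content of 75.0% and held 4 GC boxes. The Mbnl2 window had 56.3% and 1 box, the Mbnl3 window 59.0% and 0 boxes, and the Rbm47 window 42.7% and 1 box. The 3 Mbnl windows were thus unlike each other in these letters, and the median GC content of all 32851 promoters was 52.7%. Windows were not available for Esrp1, Esrp2 and Rbfox2. The other 7 members had 10 windows, with more than 1 for Mbnl1 and Rbm47. The E-box letters were found in 0 of these 10 windows, against 20.2% of all promoters, and so few windows cannot set the members apart from that share. The GC box stood in 35.7% of all promoters. Among windows not shown, those of Celf1 and Ptbp2 held 6 GC boxes each and that of Ptbp1 held 1. Mbnl1 also had a start at chr3:60472580-60472879, with a GC content of 39.3% and 0 GC boxes. Rbm47 had 3 starts in all, and its windows not shown had GC contents of 51.7% and 49.3% and 0 GC boxes each. The libraries were primed at the poly(A) tail, so the counts do not tell which start, exon or splice form was used.

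The members moved in both directions between the cell types. Rbm47 and Celf1 were called higher in mESCs, Mbnl1, Mbnl2, Mbnl3 and Rbfox2 were called lower, and Esrp1, Ptbp1 and Ptbp2 did not pass the test. The 6 called members are 66.7% of the 9 tested, beside 47.9% of all tested genes, with 22.8% of all genes called higher and 25.0% called lower. The number of calls by itself does not set the members apart. Their median log2 fold change was -0.55. In 7 of the 9, every library of the higher cell type lay above every library of the other in log2CPM, as in 52.1% of all tested genes.

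**Figure D1:**
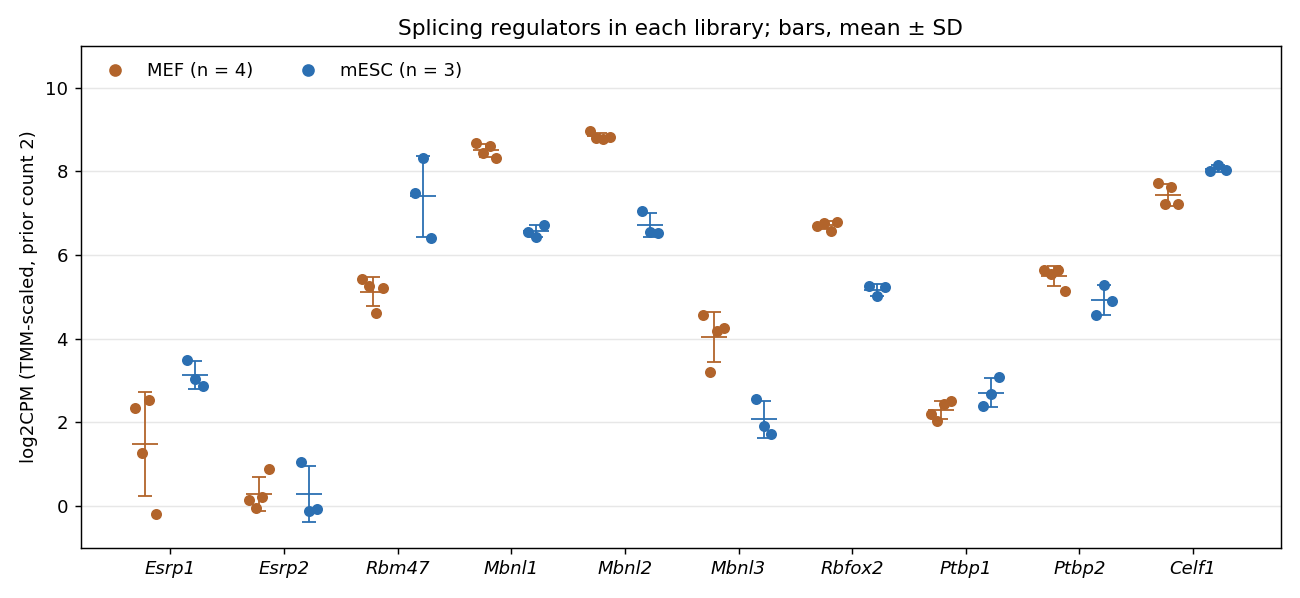
Each point is a library, with log2CPM (TMM-scaled, prior count 2) on the y axis and the 10 genes on the x axis, MEF in brown (n = 4) and mESC in blue (n = 3), and bars giving the mean ± SD. The MEF points of Mbnl1, Mbnl2 and Rbfox2 lie well above the mESC points, Rbm47 lies above its MEF points in every mESC library but spreads widely there, and Esrp2 overlaps.

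**Figure D2:**
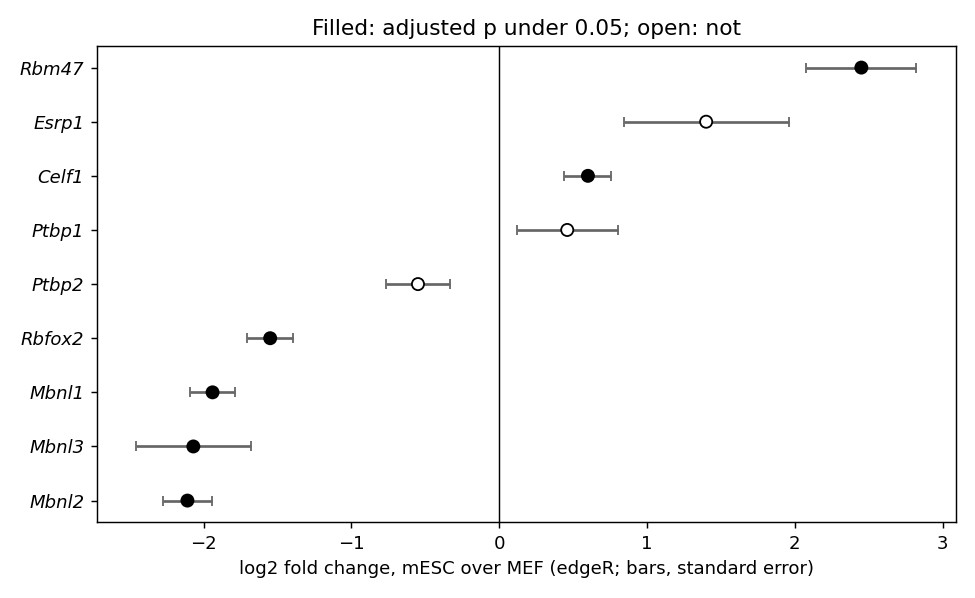
The x axis is the log2 fold change of mESC over MEF for the 9 tested members, with bars of 1 standard error and filled points where the adjusted p was under 0.05. Rbm47 stands at 2.45, Mbnl1, Mbnl2 and Mbnl3 lie between -2.11 and -1.94, and the open points are Esrp1, Ptbp1 and Ptbp2.

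Among the epithelial regulators, Esrp1 was low in both cell types and higher in each mESC library than in any MEF library. Esrp1 (ENSMUSG00000040728.15, chr4:11331933-11386783 on GRCm38) had 4.37, 1.96, 4.92 and 0.613 CPM in MEFs and 12.4, 8.69 and 8.04 CPM in mESCs, from 50, 18, 36 and 4 counts and from 102, 70 and 60 counts. The MEF library of 6528643 counts was the lowest by far, and the MEF values spread over 8.04-fold. The mean was 2.97 ± 2.03 CPM (SD, n = 4) in MEFs and 9.73 ± 2.38 CPM (SD, n = 3) in mESCs. With TMM scaling the log2 fold change was 1.40 ± 0.558 (SE). Its adjusted p was 0.061 and its unadjusted p 0.0303, and so the difference was not called. The call turned with the processing, since the adjusted p was 0.031 with DESeq2, 0.023 without TMM, 0.0129 without the filter on low counts and 0.0358 without the MEF library of 7312679 counts, within a range of 0.0129 to 0.309 over 14 alternatives.

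As mean CPM, without TMM, the level of Esrp1 in MEFs was 30.5% of that in mESCs. The summed level of the 11 pluripotency markers in MEFs was 0.851% of that in mESCs. Of 10 markers of skin and gut epithelium, 8 were tested and 1, Elf3, an epithelial transcription factor, was called higher in mESCs, at 0.137 to 0.763 CPM in MEFs and 19.7 to 31.1 CPM in mESCs. The summed level of the 10 markers was 141 to 167 CPM in MEFs and 184 to 227 CPM in mESCs, and 1 marker was at or under the floor in all MEF libraries and 1 in all mESC libraries. The skin keratins Krt5, Krt14, Krt15 and Krt10, named after their values were seen, were at 22.4 to 53.5 CPM in all 7 libraries, with adjusted p from 0.615 to 0.999. They were the highest of the list in MEFs. Over all 7 libraries Trp63 was at 9.44 to 17.5 CPM and Krt1 at 3.30 to 4.38 CPM. Krt20 was at 0.248 to 3.15 CPM, Vil1 at 0 to 1.34 CPM and Cdx2 at 0 to 0.372 CPM. The part of epithelial cells in the Esrp1 level was not tested.

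Esrp2, the paralog of Esrp1, was near the floor. Esrp2 (ENSMUSG00000084128.10, chr8:106130319-106136974) had 9, 6, 6 and 10 counts in MEFs and 17, 6 and 6 in mESCs, that is 0.948 ± 0.396 CPM (SD, n = 4) and 1.21 ± 0.751 CPM (SD, n = 3). The cell types overlapped, and the exact two-sided permutation test gave p = 1.0, where 0.0286 is the smallest it can give. At this depth no difference was detectable, and 21.9% of the bases at the 3′ ends of its transcripts also lie in exons of other genes, Nfatc3 on the other strand among them, so its few counts are uncertain.

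Rbm47, an RNA-binding protein of epithelia that takes part in splicing and in RNA editing by Apobec1, showed the largest rise among the tested members. Rbm47 (ENSMUSG00000070780.11, chr5:66016549-66173118) had 39.1, 34.3, 21.7 and 35.5 CPM in MEFs and 201, 348 and 95.7 CPM in mESCs. Every mESC library lay above every MEF library, and the mESC libraries differed among themselves by 3.64-fold, more than the MEF libraries at 1.80-fold. The mean rose from 32.7 ± 7.56 CPM (SD, n = 4) to 215 ± 127 CPM (SD, n = 3). With TMM scaling the log2 fold change was 2.45 ± 0.373 (SE, adjusted p = 0.000318), or 5.46-fold. Rbm47 was called in all 14 alternatives, with log2 fold changes of 1.88 to 2.81.

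The mESC libraries ranked alike for Rbm47 and for the genes in which libraries stood apart. The lowest mESC value, 95.7 CPM, belonged to the library of 7462710 counts, where Hnrnpa1 and Hnrnpl were lowest too. The highest, 348 CPM, belonged to the library of 8057985 counts, where these genes were highest. The MEF libraries did not rank alike. Hnrnpa1 (1269 CPM) and Hnrnpl (442 CPM) were lowest in the MEF library of 6528643 counts. Rbm47 was at 35.5 CPM there, within its MEF range of 21.7 to 39.1 CPM. Rbm47 was lowest in the MEF library of 7312679 counts, where Hnrnpa1 was highest at 2685 CPM and Hnrnpl was at 989 CPM. Without both smallest libraries the log2 fold change of Rbm47 was 2.81 with an adjusted p of 0.000123. By the smallest sum of squared differences of centred log2CPM over the 7 libraries, the genes with the most similar profile were Zbtb44 (0.404), Gm45762 (0.611) and Hmgb1-ps2 (0.661), and Zbtb44, a zinc-finger gene, had 289, 444 and 165 CPM in mESCs against 33.2 to 64.8 in MEFs. The part of the library differences in these values was not tested.

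**Figure D3:**
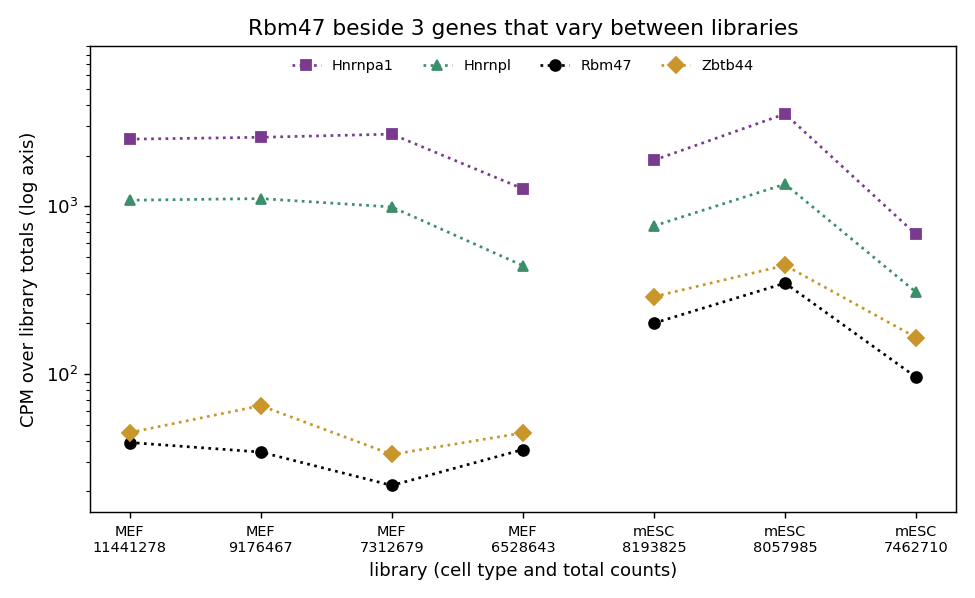
The y axis is CPM over library totals on a log axis and the x axis the 7 libraries with their total counts, with Rbm47 in black, Zbtb44 in yellow, Hnrnpa1 in purple and Hnrnpl in green and dotted lines joining libraries of the same cell type only as a guide. Rbm47 is higher in mESCs, and among the mESC libraries all 4 genes are highest in the library of 8057985 counts and lowest in that of 7462710 counts. Among the MEF libraries, Rbm47 and Zbtb44 are lowest in that of 7312679 counts. Hnrnpa1 and Hnrnpl are lowest in the MEF library of 6528643 counts.

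All 3 Mbnl genes were higher in MEFs, by 3.84-fold for Mbnl1, 4.32-fold for Mbnl2 and 4.21-fold for Mbnl3. Mbnl proteins promote the splice forms of differentiated tissues and are known for being held by the repeat RNA of myotonic dystrophy. Mbnl1 (ENSMUSG00000027763.13, chr3:60472830-60629750) had 371, 314, 348 and 306 CPM in MEFs and 105, 94.3 and 120 CPM in mESCs. The cell types were far apart compared with the spread within each, the log2 fold change being -1.94 ± 0.151 (SE, adjusted p = 2.52e-06). Mbnl2 (ENSMUSG00000022139.17, chr14:120275669-120431697) had 456, 406, 392 and 435 CPM in MEFs and 150, 103 and 104 CPM in mESCs, with a log2 fold change of -2.11 ± 0.166 (SE, adjusted p = 2.83e-06). The genes with the profile most like that of Mbnl2 were Surf4 (sum of squares 0.055), Dnajc25 (0.0828) and Slc10a3 (0.111).

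Mbnl3, the X-linked member of the family, was much lower than its paralogs and moved by a similar fold. Mbnl3 (ENSMUSG00000036109.17, chrX:51117269-51206532) had 21.3, 8.06, 16.0 and 18.1 CPM in MEFs and 6.35, 3.85 and 3.48 CPM in mESCs, and its log2 fold change was -2.07 ± 0.389 (SE, adjusted p = 0.00126). The lowest MEF value still lay above the highest mESC value. Libraries also differed in genes of the sex chromosomes, with the Y-linked genes Ddx3y, Eif2s3y and Kdm5d together at 1.92, 82.4, 0.547 and 85.2 CPM in MEFs and at 1.95, 1.99 and 40.7 CPM in mESCs. The Y-linked gene Uty did not follow this split, with 12.4, 9.04, 10.9 and 15.6 CPM in MEFs and 9.28, 8.56 and 18.4 CPM in mESCs. The X inactivation RNA Xist was at 67.2, 40.8, 38.8 and 44.7 CPM in MEFs and 14.3, 13.4 and 16.6 CPM in mESCs. Xist was called lower in mESCs (log2 fold change -1.98), the only gene called of the 5 on this list, and the part of the sex of the cells in the Mbnl3 values was not tested.

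Summed over the family, MEFs had 773 ± 52.5 CPM (SD, n = 4) and mESCs 230 ± 29.9 CPM (SD, n = 3), while the shares of its members overlapped between the cell types. Mbnl1 gave 43.3% of the family's counts in MEFs and 46.6% in mESCs, Mbnl2 54.7% and 51.5%, and Mbnl3 2.03% and 1.96%. As mean CPM, without TMM, the Mbnl levels left in mESCs were 28.2 to 31.7% of those in MEFs. The summed fibroblast markers in mESCs were 0.687% of those in MEFs. Single markers differed, with Col1a2 at 12390 CPM in MEFs and 67.7 CPM in mESCs and Lum at 81.8 and 16.3 CPM. The part of fibroblasts in the mESC values was not tested. In bulk libraries, fewer expressing cells and less RNA per cell cannot be told apart.

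Rbfox2, which binds introns beside exons of mesenchymal and neural mRNAs, was also higher in MEFs. Rbfox2 (ENSMUSG00000033565.18, chr15:77078990-77307004) had 94.4, 98.9, 85.3 and 107 CPM in MEFs and 43.0, 35 and 42.3 CPM in mESCs, and the libraries of each cell type were close to each other. The log2 fold change was -1.55 ± 0.154 (SE, adjusted p = 1.54e-05), or 2.92-fold lower in mESCs. Its paralogs, Rbfox1 of neurons and muscle and Rbfox3 of neurons, went in opposite directions. Rbfox3 was called higher in mESCs (log2 fold change 2.79, adjusted p = 0.0191), with 0.262, 0.327, 0.137 and 3.37 CPM in MEFs and 8.05, 4.59 and 11.3 CPM in mESCs. Rbfox1 had 48, 19, 27 and 10 counts in MEFs and 0 in every mESC library, at least 7.56-fold lower in mESCs when each of these is set at a floor of 3 counts. Rbfox2 made up 96.1% of the family's counts in MEFs and 83.9% in mESCs, where Rbfox3 took 16.1%.

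The polypyrimidine tract-binding proteins did not pass the test in either direction. Ptbp1 (ENSMUSG00000006498.16, chr10:79854427-79864771) had 3.93, 3.49, 4.65 and 5.21 CPM in MEFs and 5.61, 6.70 and 9.25 CPM in mESCs. Its log2 fold change was 0.46 ± 0.341 (SE, adjusted p = 0.302), with a 95% interval (normal approximation) of -0.21 to 1.12. Its 3′ end is shared with other genes in the annotation. Of the bases at the ends of its transcripts, 28.7% lie in exons of Plppr3, Gm17134 and E130317F20Rik on the other strand, and 18.3% of its 50-base sequences occur in other genes, so its low level is uncertain and the part of this overlap was not tested. Ptbp2 (ENSMUSG00000028134.11, chr3:119718742-119784466), a paralog of Ptbp1, had 44.8, 42.3, 44.4 and 33.7 CPM in MEFs and 26.5, 42.6 and 33.8 CPM in mESCs, and the cell types overlapped. Its log2 fold change was -0.55 ± 0.217 (SE, adjusted p = 0.0575) with a 95% interval (normal approximation) of -0.98 to -0.13. It was called with a filter of 10 counts in every library of a cell type (adjusted p = 0.0452), without the MEF library of 6528643 counts (0.0294) and without the mESC library of 8057985 counts (0.0238), and the adjusted p reached 1.0 in the test against a fold change of 2. By these counts the highest gene of the family was Ptbp3, with 135 ± 21.2 CPM (SD, n = 4) in MEFs and 88.1 ± 26.1 CPM (SD, n = 3) in mESCs. Ptbp3 was called lower in mESCs (log2 fold change -0.89, adjusted p = 0.00733). The place of Ptbp1 in the family is as uncertain as its counts.

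Celf1, which binds GU-rich RNA and also speeds mRNA decay, was moderately higher in mESCs. Celf1 (ENSMUSG00000005506.16, chr2:90940382-91019497) had 190, 135, 177 and 144 CPM in MEFs and 289, 309 and 298 CPM in mESCs. The mESC libraries lay within a few percent of each other and above all MEF libraries. The log2 fold change was 0.60 ± 0.159 (SE, adjusted p = 0.00929), or 1.52-fold, and the call was lost in the test against a fold change of 2 (adjusted p = 1.0) and without both smallest libraries (adjusted p = 0.0508). Celf2 went the other way, from 109, 145, 95.5 and 110 CPM in MEFs to 22.8, 31.8 and 23.9 CPM in mESCs (log2 fold change -2.41, adjusted p = 6.56e-06). By mean share of the family's counts, Celf2 came after Celf1 in MEFs and after Celf1 and Celf4 in mESCs. Single libraries differed, with Celf2 above Celf1 in the MEF library of 9176467 counts and above Celf4 in the mESC library of 8057985 counts. Celf1 took 53.9% of the family's counts in MEFs and 80.5% in mESCs, and Celf2 38.3% and 7.02%. Celf5, a neural member, was called higher in mESCs (log2 fold change 2.99, adjusted p = 0.0042) from 0.610 ± 0.488 CPM (SD, n = 4) to 6.30 ± 1.55 CPM (SD, n = 3).

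Levels of different genes were set beside each other as mean CPM per kb of exonic sequence. Since the libraries were primed at the poly(A) tail and identifiers were collapsed, counts need not grow with transcript length. The order per kb is therefore approximate and depends on this scaling. The places of Ptbp1 and Esrp2 also carry the uncertainty of their counts. In MEFs the order was Mbnl2 (35.2), Celf1 (19.1), Mbnl1 (17.9), Rbfox2 (11.9), Rbm47 (4.56), Ptbp2 (4.50), Mbnl3 (1.81), Ptbp1 (0.911), Esrp1 (0.471) and Esrp2 (0.218). The neighbours Celf1 and Mbnl1, Rbm47 and Ptbp2, and all those from Mbnl3 down to Esrp2 overlapped between libraries. In mESCs the order was Celf1 (35.4), Rbm47 (30.0), Mbnl2 (9.92), Mbnl1 (5.67), Rbfox2 (4.93), Ptbp2 (3.74), Esrp1 (1.54), Ptbp1 (1.52), Mbnl3 (0.521) and Esrp2 (0.278). There Celf1 overlapped Rbm47, Mbnl1 overlapped Rbfox2, Rbfox2 overlapped Ptbp2, Esrp1 overlapped Ptbp1, and Mbnl3 overlapped Esrp2. Without scaling by length, the mean CPM in MEFs put Mbnl1 (335) above Celf1 (162) and Ptbp2 (41.3) above Rbm47 (32.7). The rest of the order in MEFs, and that in mESCs, was the same. In both cell types the Esrp genes were in the lower part of the order, and Rbm47 moved from the middle to the top with Celf1.

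Ratios between paralogs, and that of the Esrp genes to Mbnl1 and Mbnl2, which are different families, were compared within libraries. This needs no scaling between libraries. The exact permutation test ran over 35 splits, with 7 ratios in all. Both Esrp genes together stood at a ratio to Mbnl1 and Mbnl2 of 0.00629, 0.00371, 0.00786 and 0.00299 in MEFs and 0.0573, 0.0482 and 0.0398 in mESCs. The sets did not overlap, and the ratio was 9.90-fold higher in mESCs (exact p = 0.0286, the smallest possible, and 0.1 adjusted over the 7 ratios). Of its parts, Mbnl1 and Mbnl2 were called lower in mESCs, Esrp1 was not called and Esrp2 was held back by the filter. The ratio of Celf1 to Celf2 was 1.74, 0.936, 1.86 and 1.31 in MEFs and 12.7, 9.71 and 12.5 in mESCs, an 8.17-fold difference with the same exact p of 0.0286 and adjusted p of 0.1. With 35 splits no single ratio could pass the adjustment unless several reached the smallest p together, and 0 of the 7 ratios passed it.

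The remaining ratios differed less or varied more. Esrp1 to Esrp2 was 5.32, 2.85, 5.62 and 0.429 in MEFs and 5.86, 10.8 and 9.31 in mESCs, so all mESC values were higher (exact p = 0.114, adjusted 0.2), but the largest MEF value was close to the smallest mESC value. Ptbp1 to Ptbp2 was 0.0886, 0.0837, 0.106 and 0.156 in MEFs and 0.214, 0.159 and 0.275 in mESCs (exact p = 0.0571, adjusted 0.133), again without overlap and with the uncertainty of the Ptbp1 counts. Within the Mbnl family the ratios overlapped. The mean difference on the log2 scale was 0.19 for Mbnl1 to Mbnl2 (exact p = 0.371), -0.09 for Mbnl3 to Mbnl1 (exact p = 0.857) and 0.10 for Mbnl3 to Mbnl2 (exact p = 0.943). The signs of both Mbnl3 ratios turned when single libraries were left out. That of Mbnl1 to Mbnl2 turned only without both smallest libraries.

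**Figure D4:**
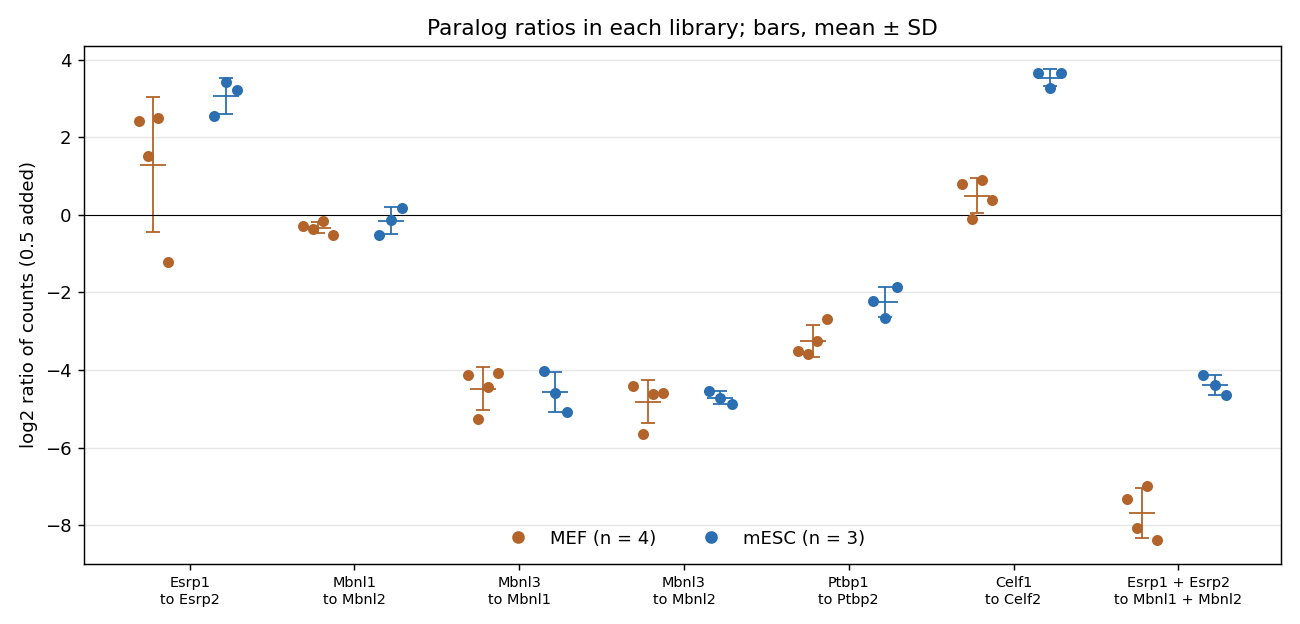
Each point is the log2 ratio of counts (0.5 added to each) in a library, MEF in brown (n = 4) and mESC in blue (n = 3), with bars giving the mean ± SD, for the 7 ratios on the x axis. Celf1 to Celf2 and the Esrp genes to Mbnl1 and Mbnl2 are far apart between cell types, while the 3 Mbnl ratios overlap.

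Other genes of the pathway were taken from fixed lists. Of 14 paralogs and partners of the members, 10 were tested, 2 were called higher in mESCs (Celf5, Rbfox3) and 3 lower (Rbfox1, Celf2, Ptbp3), with a median log2 fold change of -0.15, also with Rbfox1 at its bound, beside 0.04 over all genes. Without TMM 4 were higher, and without the mESC library of 7462710 counts 1 was higher. Of 26 other regulators of tissue splicing, 24 were tested, 9 were called higher and 6 lower, with a median of 0.27. Rbpms2, of cardiac and smooth muscle (log2 fold change 3.99), and the neural Elavl2 (3.54) rose most, and Rbms3 (-7.27) and Zcchc24 (-3.24) fell most, Rbms3 from 285 to 660 CPM in MEFs to 2.68 to 4.10 CPM in mESCs. The share of called genes on this list was 62.5%.

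Among the general splicing factors, called log2 fold changes lay between -2.09 and 1.45. Of 21 SR proteins and their kinases, which mostly promote the use of exons, 20 were tested, 9 were called higher and 3 lower with a median of 0.40, and 14 were called higher without TMM. Srsf2 (log2 fold change 1.45) and Tra2a (1.20) rose most, and Srsf12 (-2.09) and Srsf9 (-0.82) fell most. All 24 hnRNP proteins, a group that often holds exons out, were tested, and 3 were called higher and 8 lower with a median of -0.33. This balance turned to 8 higher and 3 lower without TMM, so no direction is given for the group. Hnrnph3 (0.95) and Hnrnpdl (0.47) were highest and Hnrnpul1 (-1.19) and Hnrnpa0 (-1.04) lowest among the called hnRNP genes. The count of lower hnRNP genes was 4 without any single library among the 3 largest MEF libraries, 3 without the mESC library of 8193825 counts and 5 without that of 7462710 counts, and the count of higher ones was 1 without the latter.

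**Figure D5:**
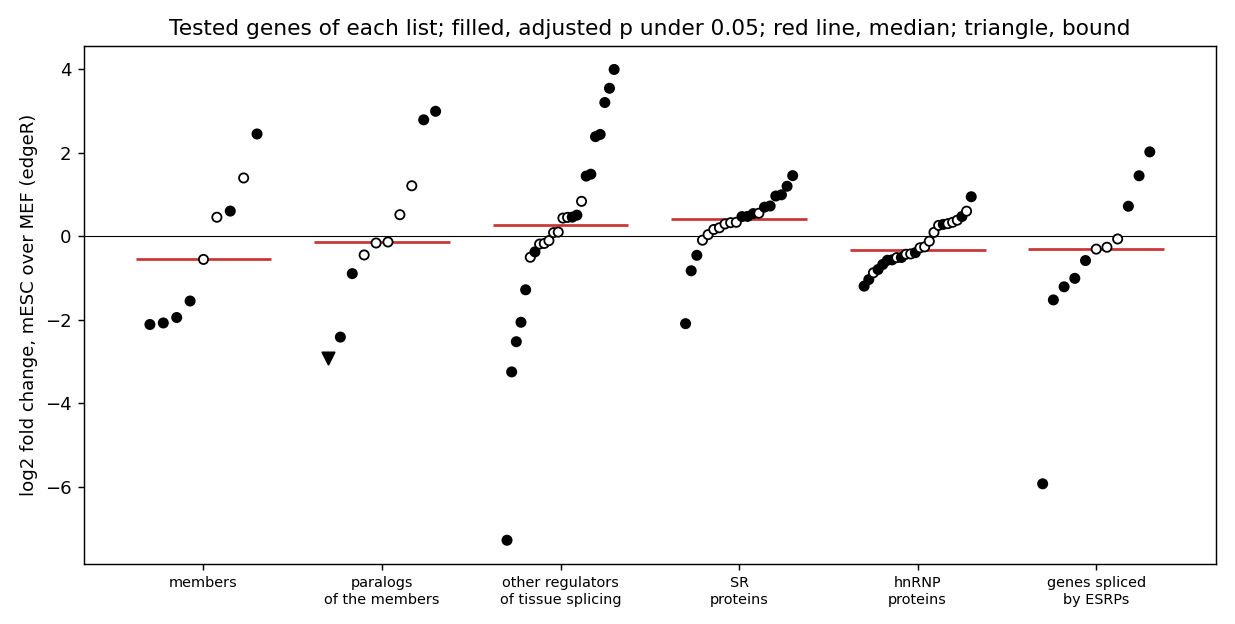
The y axis is the log2 fold change of mESC over MEF for each tested gene of 6 lists, ordered within each list, with filled points at an adjusted p under 0.05, red lines at the medians, and a triangle for Rbfox1 at its bound of -2.92. The medians run from -0.55 in the members to 0.40 in the SR proteins, and Rbms3 and Cd44 are the lowest points.

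Of 12 genes whose mRNAs Esrp proteins are known to splice, 11 were tested, 3 were called higher in mESCs and 5 lower, with a median of -0.31. The integrin Itga6 (log2 fold change 2.02) and the actin regulator Enah (1.45) were higher, and the hyaluronan receptor Cd44 (-5.92) and the growth factor receptor Fgfr2 (-1.52) were lower. Cd44 had 388, 222, 436 and 216 CPM in MEFs and 7.81, 9.80 and 1.21 CPM in mESCs. These are total levels, and 3′ counts hold no measure of which exons the mRNAs carried.

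Among markers of the epithelial and mesenchymal states nearly all tested genes were called. Of 24 epithelial markers, which include Esrp1, Esrp2 and Rbm47, 20 were tested, 15 were called higher in mESCs, Rbm47 among them, and 1, Krt18, was called lower, with a median of 3.24. The adhesion molecule Cdh1 had 101 ± 13.9 CPM (SD, n = 3) in mESCs and 3.13 ± 1.03 CPM (SD, n = 4) in MEFs, and Spint1 and Cldn4 rose most on the list, Spint1 from 0 to 0.787 CPM in MEFs to 29.3 to 50.4 CPM in mESCs and Cldn4 with a log2 fold change of 5.54. Grhl2, an epithelial transcription factor, rose by 1.96 on the log2 scale. All 17 mesenchymal markers were called lower, with a median of -5.69, and the lowest were Twist2 (-7.90) and Cdh11 (-7.06). The repressors of epithelial genes Zeb2 (-5.37), Snai1 (-6.07) and Snai2 (-5.84) fell strongly. Zeb1 fell less, from 73.2 ± 4.39 CPM (SD, n = 4) to 34.3 ± 10.3 CPM (SD, n = 3), and its log2 fold change with TMM was -1.37.

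Markers of other cell types in which these splicing regulators act were mixed. Of 10 neuronal markers, 9 were tested, 3 were called higher in mESCs (Stmn2, Elavl3, Rbfox3) and 3 lower (Syt1, Map2, Tubb3), and their summed level was 170 to 211 CPM in MEFs and 746 to 834 CPM in mESCs, where Stmn2 gave 649 to 731 CPM of it. Of 10 muscle markers, 7 were tested, 0 were called higher and 3 lower (Actc1, Acta1, Tnnt2), with sums of 60.5 to 91.6 CPM in MEFs and 36.7 to 41.7 CPM in mESCs. Of 12 blood markers, 7 were tested, 2 were called higher (Laptm5 and Kit) and 1 lower (Cd53), with sums of 15.9 to 39.8 CPM in MEFs and 118 to 126 CPM in mESCs, and 3 were at or under the floor in all MEF libraries and 3 in all mESC libraries. The part of other cell types in the members' values was not tested.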

How the data were processed

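Gene counts of 7 RNA-seq libraries, 4 of MEFs and 3 of mESCs, were used. The authors primed poly(A) RNA with barcoded oligonucleotides that carry molecular identifiers, aligned reads with STAR (2.4.2a per the submitters' processing notes) to GRCm38 (mm10), collapsed identifiers and counted reads on genes with featureCounts, and the deposited values are these whole-number counts, with no scaling applied. Neither the release of the annotation nor the strand setting is given in the sources used here. Columns of the count table name the cell type but could not be tied to single samples.

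The members and all gene lists were chosen with earlier results of these data known. Counts were tested with edgeR 4.0.16 (R 4.3.3), with TMM scaling and filterByExpr, in 1 quasi-likelihood fit of all 7 libraries that held the cell type alone, and p-values were adjusted over all genes tested. Standard errors are the log2 fold change divided by the square root of the F statistic. log2CPM used a prior count of 2 and ratios added 0.5 to each count. Ratios, and Esrp2, were compared by an exact two-sided permutation test. Named genes were the members, the 2 highest and 2 lowest called genes of each list, partners in ratios and the 3 nearest profiles of the members with the highest and lowest log2 fold change, and other genes were added after their values were seen. The lists covered paralogs, other tissue splicing regulators, SR proteins, hnRNP proteins, genes spliced by Esrp proteins, and markers of epithelial, mesenchymal, pluripotent, fibroblast, neuronal, muscle, skin and gut, and blood cells and of the sex chromosomes. Alternatives were DESeq2 1.42.0, other scaling and filters, a test against a fold change of 2, other pseudocounts, each library left out, and both smallest libraries left out.

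Coordinates, exon lengths and shared 50-base sequences are from GENCODE M21 on GRCm38, which names 96.3% of gene rows (98.9% of counts). Overlaps were taken over the last 500 bases of each coding transcript. There were 26 date-like symbols (0.249% of counts), 0 rows naming no gene and 0 unused columns. In simulated data where 200 of 16580 genes were given a log2 fold change of 2, up or down at random, 156 were recovered with 10 false calls, and 0 calls were made with no change. In the real data 47.9% of tested genes were called, so the simulation does not test the scaling under such broad change.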

Additional observations from a re-analysis of the deposited data

Results flagged for a closer look

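In MEFs the log2 ratio of Mbnl3 to Mbnl2 had a library far from the others. The library of 9176467 counts had a ratio of 0.0200 against 0.0410 to 0.0469 in the other 3, and the gap took 0.843 of the whole range, above Dixon's critical value for 4 samples. Mbnl3 itself was lowest in that library, at 8.06 CPM. This was the only one of 17 values so tested in MEFs to exceed the critical value, and chance alone flags about 1 in 20. The cause was not tested.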

How the results depend on the processing

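No paired analysis was possible because no source ties a count column to a numbered sample. No log2 fold change of a member changed direction in any alternative. Members called higher numbered 1 in the test against a fold change of 2 and 1 without both smallest libraries, an alternative chosen after seeing the data, and 2 to 3 with each library left out, when 4 to 5 were lower. Without TMM, 4 paralogs, 14 SR and 8 hnRNP genes were called higher and 3 hnRNP genes lower. With DESeq2 size factors, 5 hnRNP genes were lower. Against a fold change of 2, 1 paralog, 1 SR and 0 hnRNP genes were higher, and 0 SR genes, 0 hnRNP genes, 1 gene spliced by Esrp proteins and 0 epithelial markers were lower. Without both smallest libraries 1 hnRNP gene was higher. With each library left out, 1 to 3 paralogs and 1 to 3 hnRNP genes were higher and 3 to 10 hnRNP genes lower. The log2 difference of the Mbnl1 to Mbnl2 ratio was -0.04 and that of Mbnl3 to Mbnl1 was 0.30 without both smallest libraries. With each library left out, Mbnl3 to Mbnl1 ran from -0.36 to 0.16, turning positive at 0.03, 0.04 and 0.16, and Mbnl3 to Mbnl2 ran from -0.18 to 0.23. The log2 difference of Celf1 to Celf2 was 2.94 and that of the Esrp genes to Mbnl1 and Mbnl2 was 3.21 without both smallest libraries, and they ran from 2.83 to 3.16 and from 3.08 to 3.54 with each library left out, where the smallest possible exact p was 0.0667 or 0.1. The cause of the other changes was not tested. Esrp1 and Esrp2 are limited by depth, with as few as 4 and 6 counts in a library.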
